A study of Mus musculus with 4 samples.

Results

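The genes described are the mouse translation initiation factors: all annotated genes whose symbol begins with Eif followed by a digit from 1 to 6 and that have at least 1 protein-coding transcript, without the Y-linked Eif2s3y and without symbols marked as pseudogenes. This rule gave 54 genes of 55536 annotated genes, and it used names and annotation but no measured value. By the digit in the symbol, 5 belong to the Eif1 group, 14 to Eif2, 14 to Eif3, 16 to Eif4, 4 to Eif5 and 1 to Eif6. They were measured in ribosomal-RNA-depleted total RNA from the cytosol of C57BL/6J bone-marrow-derived macrophages, which are phagocytic cells differentiated in vitro from bone marrow progenitors. Lipid A, the membrane anchor of bacterial endotoxin and a ligand of Toll-like receptor 4, had been given to the cells at 100 ng/ml for 12 h, washed out for 12 h, and given again at 100 ng/ml for 15 min. All 4 libraries, labelled biological replicates 1 to 4, are of this 1 condition, and the labels name 1 donor record for all of them and give no sex or age. There is no untreated group here, so every value is a level in restimulated macrophages and none is a response to lipid A.

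Initiation brings a ribosome to the start codon of a messenger RNA. The eIF4F complex (the cap-binding protein eIF4E, the scaffold eIF4G and the RNA helicase eIF4A) recruits a small ribosomal subunit that carries eIF1, eIF1A, eIF3, eIF5 and the eIF2-GTP-initiator tRNA complex. The subunit scans to the start codon, eIF5 stimulates GTP hydrolysis by eIF2, eIF5B joins the large subunit, and eIF2B recharges eIF2 with GTP. In macrophages 2 switches of this pathway are well known: mTOR phosphorylates the 4E-binding proteins that hold eIF4E, and stress kinases phosphorylate eIF2 alpha, which blocks eIF2B.

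Expected counts, the fractional read counts a quantification model assigns to each gene, summed to between 30660511 and 48223718 per library, and 53 of the 54 genes had counts. Levels are in TPM, a relative transcript abundance that is corrected for length and has a fixed total per library, and so can be compared between genes. A short RNA, the 7SL RNA, took 55.9% to 65.6% of all TPM and protein-coding genes only 25.3% to 36.6%, so a second level relative to the median expressed protein-coding gene of each library is given too; that median lay at 8.37, 7.01, 8.31 and 9.62 TPM in replicates 1 to 4, over 9436 genes. The macrophage markers Lyz2, Csf1r, Adgre1, Cd68, Itgam, Fcgr1 and Mertk were each called above 1 TPM, and of 12 markers of other cells only the platelet chemokine gene Pf4 was, at 100 ± 33.1 TPM; Epcam, Alb and Hbb-bs had 0 counts. In bulk RNA, fewer cells that express a gene and less of its RNA per cell cannot be told apart. Means below are given with the standard deviation over the 4 libraries (SD, n = 4), and p-values measure the spread between these samples, which share a donor record.

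Nearly the whole initiation machinery was detected. Of the 54 genes, 53 were called above 1 TPM in limma's test, against a background of 58.2% of the 16262 genes tested and 71.2% of the 12636 protein-coding genes tested. No member was called below 1 TPM, against 35.1% of all genes tested. Eif4e1b, an oocyte-associated relative of eIF4E, was the exception: its expected count was 0 in each library, which allows up to 3 counts, or 0.0791, 0.0565, 0.0509 and 0.0672 TPM, in replicates 1 to 4. This limit covers counting error only. A second deposited quantification, described below, gave Eif4e1b more than that, up to 20.7 estimated counts in replicate 2. Relative to the median expressed gene, 37 initiation factor genes were called higher and 10 lower, and 6 were called neither; over all genes tested, 26.7% were called higher and 67.2% lower, and over protein-coding genes 33.3% and 59.3%. The median member stood at 21.8 TPM on average, against 4.85 TPM for the median protein-coding gene tested. As a share of the summed TPM of all members, which was 2038, 1532, 1749 and 2058 TPM in replicates 1 to 4, the 4 highest genes alone held 38.4% to 42.3% and the 12 highest 59.7% to 61.1%.

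**Figure D1:**
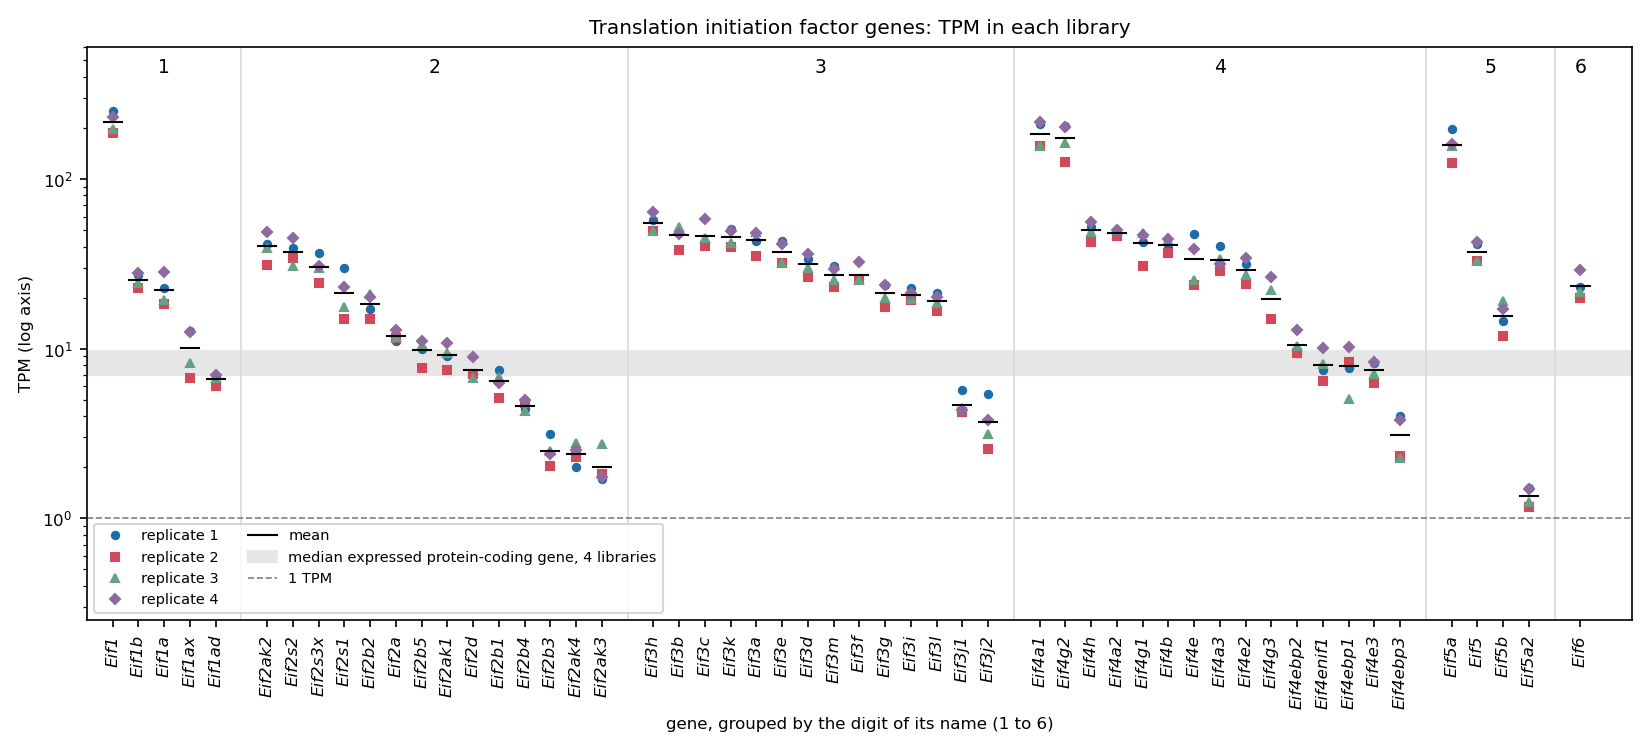
TPM on a log axis of 53 initiation factor genes in each of 4 libraries, grouped by the digit of the symbol; coloured symbols are libraries, black bars are means, the grey band spans the median expressed protein-coding gene of the 4 libraries and the dashed line marks 1 TPM. Eif1, Eif4a1, Eif4g2 and Eif5a stand above 100 TPM in every library, and Eif4e1b, with 0 counts in all of them, cannot be drawn.

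The start codon factors were led by Eif1, the factor that keeps the scanning ribosome open until a start codon is paired. Eif1 had 250.5, 186, 196 and 232 TPM in replicates 1 to 4, a mean of 216 ± 30.1 TPM, the highest gene total of all members and 25.6 times the median expressed gene. Divided by transcript, the coding Eif1-201 had 129 ± 17.0 TPM and the noncoding Eif1-202 had 85.7 ± 15.5 TPM. Coding transcripts of Eif4a1 had 179 ± 33.5 TPM, so the top rank of Eif1 holds for gene totals only. The close paralog of Eif1, Eif1b, had 27.3, 22.7, 24.4 and 27.8 TPM (mean 25.6 ± 2.42), all in a coding transcript. No Eif1b value came near an Eif1 value. Within a library the Eif1 gene total exceeded that of Eif1b by 9.16, 8.20, 8.04 and 8.36 times. The 342 coding bases of the 2 genes differ at 64 places, which lets reads be told apart. Their first 60 coding bases are shown for that reason, read on the plus strand of mm10 from the first to the last printed base at chr11:100320130-100320694 for Eif1 and chr9:120492811-120494135 for Eif1b, spans that each include an intron; capitals mark the 5 differing bases.
Eif1: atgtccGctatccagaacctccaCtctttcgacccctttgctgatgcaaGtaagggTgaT
Eif1b: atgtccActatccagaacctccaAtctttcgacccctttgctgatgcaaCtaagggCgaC
Eif1 also shares 37.2% of the 31-base words of its leading transcript with other annotated transcripts, foremost 23.5% with the protein-coding gene Emd, which had 10.1 TPM, and 16.6% with the processed pseudogene Gm10157, which had 0.945 TPM.

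The factor eIF1A, which fills the A site during scanning, is encoded by Eif1a and Eif1ax. Eif1a had 22.9, 18.4, 19.3 and 28.3 TPM (mean 22.2 ± 4.47), and the X-linked Eif1ax had 12.6, 6.74, 8.23 and 12.5 TPM (mean 10.02 ± 2.99). Eif1ax lay below Eif1a in each library, at 0.442 times its level as a geometric mean. Eif1ax was one of the 6 genes not called on either side of the median expressed gene. Its value is a gene total in which a retained-intron transcript held 49.2% ± 9.68, as described below. The coding Eif1ax-201 alone had 4.895 ± 0.817 TPM, whereas all Eif1a transcripts are annotated as protein-coding. Eif1ad, named for its eIF1A-like domain, had the lowest gene total of the group with 6.86, 6.05, 6.74 and 7 TPM (mean 6.66 ± 0.422) and was called below the median gene.

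The 3 subunits of eIF2, which deliver the initiator tRNA, were all called above the median expressed gene. Eif2s2, the beta subunit, had 39.4, 34.3, 30.7 and 44.8 TPM (mean 37.3 ± 6.13). Eif2s3x, the X-linked gamma subunit that binds GTP, had 36.8, 24.3, 29.99 and 30.6 TPM (mean 30.4 ± 5.09). Eif2s1, the alpha subunit whose phosphorylation stalls initiation, had 29.7, 14.9, 17.6 and 23.0 TPM (mean 21.3 ± 6.53). The alpha subunit was thus the lowest of the 3 in every library, at 0.557 times Eif2s2, and replicate 1 was its highest library. In the second deposited quantification, made directly from the reads, the order of the Eif2s1 and Eif2s2 gene totals was less clear: the ratio was 1.04, 0.583, 0.756 and 0.624, so replicate 1 turned. Eif2s3x over Eif2s1 likewise changed side in that library there, at 0.891 in replicate 1. Noncoding processed transcripts held 47.8%, 39.8%, 31.9% and 35.1% of that Eif2s1 total in replicates 1 to 4. Leading coding transcripts there had mean levels of 6.00 TPM (Eif2s1-201), 12.9 TPM (Eif2s2-201) and 10.6 TPM (Eif2s3x-201), with the alpha subunit again the lowest.

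The eIF2B subunits, whose complex exchanges GDP for GTP on eIF2, had lower means than the subunits of eIF2 and differed from one another. Eif2b2, the beta subunit, led with 17.0, 14.9, 21.1 and 20.3 TPM (mean 18.3 ± 2.87). Eif2b5, the catalytic epsilon subunit, followed with 9.97, 7.73, 10.5 and 11.1 TPM (mean 9.81 ± 1.45). Eif2b1 (alpha) had 7.45, 5.14, 6.78 and 6.28 TPM (mean 6.41 ± 0.974). The values of these 3 genes did not overlap, and Eif2b2 and Eif2b5 were called above the median gene, while Eif2b1 was called below it. Eif2b4 (delta) had 4.40, 4.76, 4.28 and 4.98 TPM (mean 4.61 ± 0.323), and Eif2b3 (gamma) had 3.12, 2.03, 2.48 and 2.38 TPM (mean 2.50 ± 0.455). Both were called below the median gene, and the highest subunit exceeded the lowest by 7.32 times in mean TPM, against 1.75 times among the eIF2 subunits. The Eif2b2 value is a gene total in which retained-intron transcripts held 43.0% ± 6.75, as described below.

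Of the 4 kinases that phosphorylate eIF2 alpha, Eif2ak2 stood apart. It encodes PKR, the double-stranded-RNA sensor, which is known as an interferon-induced gene. Eif2ak2 had 41.4, 31.3, 39.1 and 48.6 TPM (mean 40.1 ± 7.16), the highest of the Eif2 group. Eif2ak1, the heme-regulated kinase, had 9.07, 7.47, 9.37 and 10.8 TPM (mean 9.19 ± 1.38), near the median expressed gene and not called on either side of it. Eif2ak4 (GCN2), which senses uncharged tRNA, had 2.00, 2.29, 2.77 and 2.51 TPM (mean 2.39 ± 0.327). Eif2ak3 (PERK), the kinase of endoplasmic reticulum stress, had 1.71, 1.82, 2.74 and 1.74 TPM (mean 2.00 ± 0.494). Each Eif2ak2 value exceeded every value of the other 3 kinases, and its ratio within a library was 4.35 over Eif2ak1, 20.2 over Eif2ak3 and 16.7 over Eif2ak4 as geometric means. All 3 ratios had the same side in 4 of 4 libraries, and each p was the smallest that 4 libraries allow in the two-sided exact sign-flip permutation test, 2 of 16 sign patterns.

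The promoter of Eif2ak2 is shown because an interferon response element is known for this gene. RefSeq promoter windows (GRCm38.p6, 250 bases before to 50 after the start) were given for 42 of the 54 members. The core of the interferon-stimulated response element, 2 copies of GAAA with any 2 bases between them, searched on both strands, was in the windows of 4 of those 42 genes (Eif2ak2, Eif2s1, Eif2s3x and Eif3a) and in 3.99% of the 27025 genes with a window. In Eif2ak2 it begins at base 19 counted from the start site, and it stands in capitals in this stretch of the minus strand, chr17:78882543-78882632.
Eif2ak2: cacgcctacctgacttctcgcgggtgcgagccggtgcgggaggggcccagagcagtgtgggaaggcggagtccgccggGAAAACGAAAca
The E-box CACGTG was in the windows of 10 of the 42 genes, against 8.09% of all genes with a window: Eif1b, Eif3a, Eif3f, Eif3k, Eif4a1, Eif4e, Eif4g1, Eif4h, Eif5a and Eif5a2. The motif TGATGNAA, which ATF4 is known to bind, was in 1 of the 42, Eif2s3x, against 4.51%. A match is a description of letters and shows no binding in these cells.

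The other Eif2 genes act outside the main complex. Eif2a, which can deliver tRNA independently of eIF2, had 11.1, 11.6, 11.8 and 12.9 TPM (mean 11.8 ± 0.768) and was called above the median gene. Eif2d, a factor known for ribosome recycling and noncanonical initiation, had 7.10, 7.12, 6.70 and 8.89 TPM (mean 7.45 ± 0.978) and was not called on either side. In all, 11 members overlap a protein-coding gene of at least 1 TPM, Eif4ebp3 on the same strand and the others on the opposite strand, and no source used here says whether the counting used strand. For several of them the overlapping gene was the higher: Serp1 at 132 TPM opposite Eif2a, Rassf5 at 10.1 TPM opposite Eif2d, Banf1 at 21.2 TPM opposite Eif1ad, Drg1 at 21.2 TPM opposite Eif4enif1, Snx17 at 18.7 TPM opposite Eif2b4 and Spg11 at 9.13 TPM opposite Eif3j1. Their levels and calls are uncertain to that extent.

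The eIF3 scaffold, the largest initiation factor, was expressed within a narrow band. Its 12 subunits other than eIF3j had means of 19.2 to 55.1 TPM, a span of 2.87 times, and all 12 were called above the median expressed gene. Eif3h led with 57.5, 49.5, 49.6 and 64.1 TPM (mean 55.1 ± 7.04). The core subunits Eif3a, Eif3b and Eif3c followed closely: Eif3b had 48.9, 38.1, 51.9 and 47.5 TPM (mean 46.6 ± 5.96), Eif3c had 41.9, 40.3, 45.1 and 58.1 TPM (mean 46.4 ± 8.09), and Eif3a had 43.3, 35.2, 48.5 and 47.96 TPM (mean 43.7 ± 6.17). Eif3k had 50.9, 39.9, 41.9 and 49.2 TPM (mean 45.5 ± 5.39). These 5 genes overlapped, and in the order of means each neighbouring pair changed places in at least 1 library. Next came Eif3e at 37.1 ± 6.01 TPM, then Eif3d with 33.6, 26.4, 29.9 and 36.0 TPM (mean 31.5 ± 4.22), Eif3m at 27.2 ± 3.504 TPM and Eif3f with 25.6, 25.5, 25.5 and 32.3 TPM (mean 27.2 ± 3.40). Eif3g at 21.2 ± 3.02, Eif3i at 20.7 ± 1.64 and Eif3l at 19.2 ± 2.00 TPM closed the band. Among these 12 genes the coefficient of variation of the means was 34.7%, against 134% over all 54 members. Eif3a over Eif3b, 2 subunits that bind each other, was 0.886, 0.923, 0.934 and 1.01 in replicates 1 to 4 (p = 0.25, two-sided exact sign-flip permutation), so the 2 could not be ordered.

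The loosely bound subunit eIF3j lay far below the rest and is encoded by 2 near-identical genes. Eif3j1 had 5.68, 4.22, 4.45 and 4.33 TPM (mean 4.67 ± 0.680), and Eif3j2 had 5.38, 2.56, 3.12 and 3.79 TPM (mean 3.71 ± 1.22). Both were called below the median expressed gene, and even their sum in each library was under the level of Eif3l, the lowest of the other 12. The transcript of Eif3j2, the only one annotated for the gene, shares 94.9% of its 31-base words with other genes, 94.0% with Eif3j1 alone, while Eif3j1 shares 41.0% of its words with Eif3j2, 17.9% with the overlapping gene Spg11 and 10.7% with the pseudogene Gm3650. The 2 quantifications divided these reads in opposite ways: Eif3j1 over Eif3j2 was 1.06, 1.65, 1.43 and 1.14 in the first and 0.425, 0.516, 0.544 and 0.361 in the second. The 2 sets of ratios do not overlap and lie on opposite sides of 1. Separate values for the 2 genes are therefore uncertain.

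The Eif4 genes include 2 of the 4 highest members, Eif4a1 and Eif4g2. Eif4a1, the major eIF4A helicase, had 210, 156, 156 and 215 TPM (mean 184 ± 32.7), 21.7 times the median expressed gene. Eif4a2, its paralog, had 46.8, 46.3, 50.3 and 49.9 TPM (mean 48.3 ± 2.10), the smallest relative SD among the 12 highest members. Eif4a3, the helicase of the exon junction complex, had 40.2, 28.5, 33.7 and 31.4 TPM (mean 33.5 ± 4.95). The paralogs did not overlap with Eif4a1, which stood 3.77 times above Eif4a2 and 5.48 times above Eif4a3 as geometric means of the 4 libraries. Eif4a1 shares 67.5% of the 31-base words of its leading transcript with 8 other genes, mostly with the processed pseudogene Eif4a-ps4, listed at 5.53 TPM.

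Eif4g2 was the highest scaffold gene. It encodes DAP5, a relative of eIF4G that lacks the region binding eIF4E. Eif4g2 had 205, 126, 164 and 203 TPM (mean 175 ± 37.4), Eif4g1 had 42.8, 30.6, 47.8 and 46.5 TPM (mean 41.9 ± 7.84), and Eif4g3 had 15.0, 14.9, 22.2 and 26.4 TPM (mean 19.6 ± 5.66). The 3 genes kept this order in every library, with Eif4g2 at 4.15 times Eif4g1 and Eif4g1 at 2.17 times Eif4g3. Few of their words occur in other genes: 0.199% for Eif4g2, 0.988% for Eif4g1 and 0 for Eif4g3.

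Among the cap-binding proteins, Eif4e and Eif4e2 could not be ordered in the first quantification. Eif4e had 47.1, 23.7, 25.5 and 38.7 TPM (mean 33.7 ± 11.2), with replicates 1 and 4 well above the others. Eif4e2, the 4EHP protein that competes for caps, had 31.7, 24.1, 27.0 and 34.1 TPM (mean 29.2 ± 4.49). Eif4e over Eif4e2 was 1.49, 0.982, 0.943 and 1.14 (p = 0.5, two-sided exact sign-flip permutation). In the second quantification Eif4e was the higher in 4 of 4 libraries, by 1.78, 1.15, 1.07 and 1.34 times. Eif4e3, a divergent cap-binding relative, was lower, with 8.26, 6.26, 7.07 and 8.29 TPM (mean 7.47 ± 0.987).

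The genes of the 4E-binding proteins, which block eIF4E until mTOR phosphorylates them, lay below Eif4e in RNA level. Protein amounts were not measured, so these values give no ratio of binding protein to eIF4E. Eif4ebp2 had 9.39, 9.42, 10.4 and 13.0 TPM (mean 10.5 ± 1.68), Eif4ebp1 had 7.74, 8.31, 5.06 and 10.3 TPM (mean 7.85 ± 2.15), and Eif4ebp3 had 4.03, 2.32, 2.26 and 3.80 TPM (mean 3.10 ± 0.943). Relative to Eif4e in the same library, Eif4ebp1 stood at 0.164, 0.351, 0.199 and 0.265 and Eif4ebp2 at 0.199, 0.398, 0.409 and 0.335. Eif4ebp1 was below Eif4ebp2 in each library, at 0.824, 0.882, 0.486 and 0.793 times its level. The Eif4ebp1 value is a gene total that includes a noncoding transcript, as described below. Summed, the 3 binding-protein genes held 21.2, 20.05, 17.7 and 27.0 TPM in replicates 1 to 4 (mean 21.5 ± 3.96). Eif4e alone had 47.1, 23.7, 25.5 and 38.7 TPM in the same libraries. The 4 Eif4e genes together, which include the relatives of Eif4e, held 70.4 ± 16.1 TPM. Eif4ebp3 is uncertain: it rests on a mean of 101 counts, the smallest among the 53, and 66.4% of its words are shared with an annotated protein-coding gene that overlaps it on the same strand. Eif4enif1, the 4E-T protein that shuttles eIF4E and represses bound messages, had 7.51, 6.48, 8.09 and 10.1 TPM (mean 8.04 ± 1.51) and was not called on either side of the median gene.

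The 2 cofactors of eIF4A were close in level, with Eif4h the higher. Eif4h had 52.4, 42.4, 48.8 and 55.9 TPM (mean 49.9 ± 5.77), and Eif4b had 39.1, 36.6, 43.9 and 44.5 TPM (mean 41.0 ± 3.83). Eif4h was higher in 4 of 4 libraries, by 1.34, 1.16, 1.11 and 1.25 times.

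The factors of the last steps were led by Eif5a, which is known mainly for elongation past stalling peptides and carries hypusine. Eif5a had 196, 123, 157 and 161 TPM (mean 159 ± 29.9), 18.8 times the median gene. Its paralog Eif5a2 was the lowest detected member, with 1.5, 1.17, 1.25 and 1.48 TPM (mean 1.35 ± 0.165), and Eif5a exceeded it by 117 times as a geometric mean ratio. Its call above 1 TPM was the weakest, a log2 difference of 0.39 ± 0.15 (SE) with an adjusted p of 0.0256 in limma; without replicates 1, 3 or 4 in turn, the call was lost. Eif5, the GTPase activator of eIF2, had 41.2, 33.0, 32.8 and 42.5 TPM (mean 37.4 ± 5.19), and Eif5b, the GTPase that joins the subunits, had 14.5, 11.8, 19.1 and 17.0 TPM (mean 15.6 ± 3.14). Eif5 was the higher in each library, by 2.85, 2.79, 1.72 and 2.50 times. Eif6, which keeps free large subunits from joining early, had 23.0, 20.0, 21.4 and 28.9 TPM (mean 23.3 ± 3.92). The 2 enzymes that make hypusine on eIF5A were both called above 1 TPM: Dhps had 13.1 ± 2.42 TPM and Dohh 9.25 ± 1.32 TPM.

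**Figure D2:**
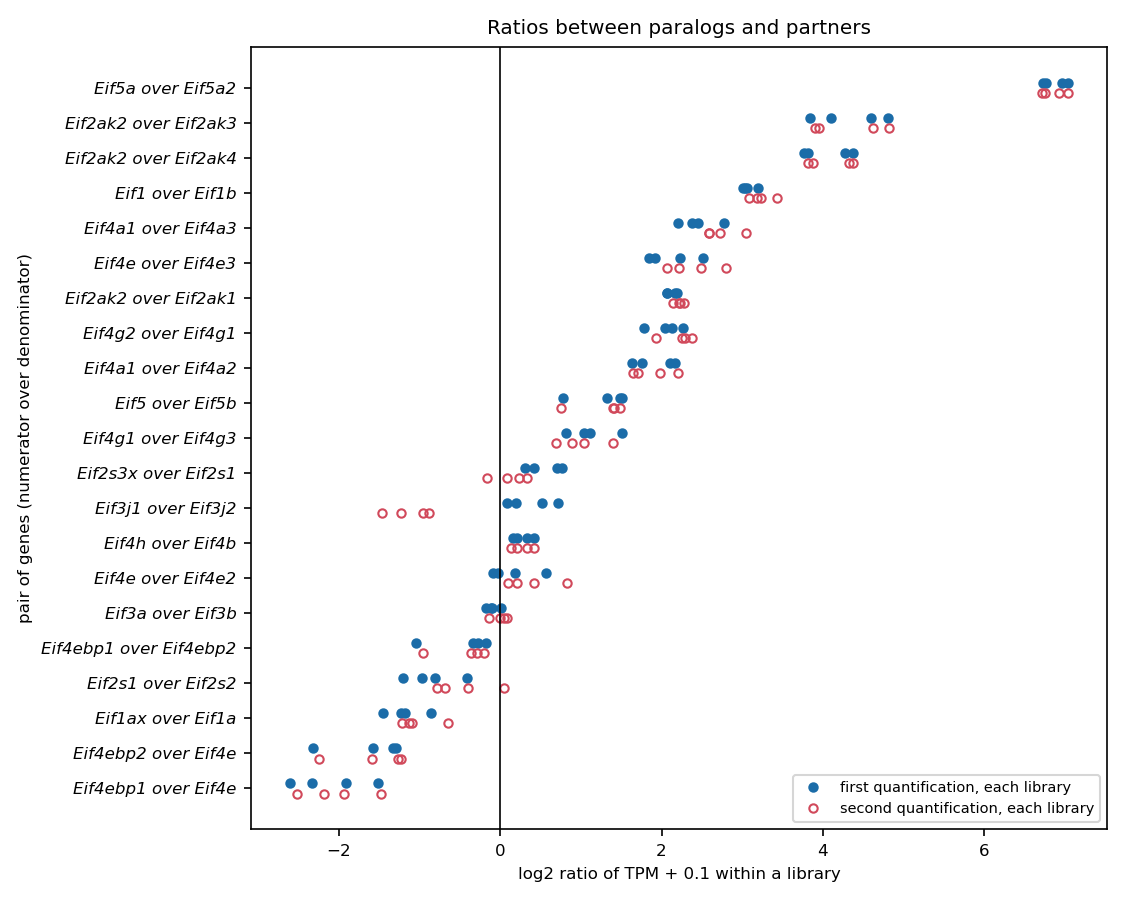
Within-library log2 ratios of TPM for 21 pairs of paralogs or partners, drawn without the added 0.1 that the axis label names. Filled blue points are the 4 libraries in the first quantification and open red points the same libraries in the second. Eif5a over Eif5a2 lies near 7 in both, whereas Eif3j1 over Eif3j2 lies above 0 in the first quantification and below 0 in the second.

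Over all 21 pairs compared, 19 had the same side in 4 of 4 libraries, the exceptions being Eif4e over Eif4e2 and Eif3a over Eif3b. With 4 libraries the two-sided exact sign-flip permutation test cannot go below 2 of 16 sign patterns, so no pair could pass 0.05, and the 19 pairs had a Benjamini-Hochberg adjusted permutation p of 0.138. The second quantification put 18 of 21 pairs on 1 side in all libraries.

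At the level of transcripts, most initiation factor genes were led by a protein-coding isoform. The transcript with the largest share of its gene's TPM was protein-coding in 52 of 53 genes in the first transcript table and in 50 in the second, it was the same transcript in both tables in 50, and it held at least 90% of the gene in both tables in 23. Summed over all members, protein-coding transcripts held 89.5% ± 0.809 of the TPM in the first table and 86.9% ± 1.71 in the second. These shares come from a model that divides reads among overlapping isoforms, not from counted junctions.

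Eif4a2 was the exception: its leading transcript was annotated as a target of nonsense-mediated decay, the pathway that degrades messages with an early stop codon. Eif4a2-210 held 48.7%, 39.3%, 49.0% and 44.7% of the gene's TPM in replicates 1 to 4 of the first table (mean 45.4% ± 4.56), and 37.6% ± 4.40 in the second. With Eif4a2-204 and Eif4a2-217 added, decay transcripts held 66.9% ± 6.01 of Eif4a2 in the first table and 52.9% ± 7.86 in the second. The protein-coding transcripts of Eif4a2 together had 11.4, 11.2, 12.8 and 13.4 TPM in the first table, against 206, 148, 152 and 210 TPM for those of Eif4a1. Counted over coding transcripts alone, Eif4a1 exceeded Eif4a2 by 18.1, 13.3, 12.0 and 15.7 times, a geometric mean of 14.6, and by 8.99 times in the second table, where the gene totals gave 3.77 and 3.70 times.

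The difference between these Eif4a2 isoforms is shown by their sequence, from the GENCODE M21 transcripts on the plus strand of mm10. Eif4a2-210 lacks a 140-base coding exon of Eif4a2-201 at chr16:23109120-23109259, a length that is not a multiple of 3. The lines give that exon, then 30 bases on each side of the junction into it in Eif4a2-201 (exon bases in capitals, chr16:23108822-23109149 with the intron between), then Eif4a2-210 from the same exon end to its stop codon (capitals, chr16:23108822-23110067 with the intron between).
Exon absent from Eif4a2-210: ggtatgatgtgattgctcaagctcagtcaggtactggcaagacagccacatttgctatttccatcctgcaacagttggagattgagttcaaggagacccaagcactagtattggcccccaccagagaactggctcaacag
Eif4a2-201: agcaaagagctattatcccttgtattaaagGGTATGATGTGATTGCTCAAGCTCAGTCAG
Eif4a2-210: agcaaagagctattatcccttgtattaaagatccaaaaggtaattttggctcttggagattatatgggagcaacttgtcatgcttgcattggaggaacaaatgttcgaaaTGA
Without the exon the reading frame ends in the next exon, so the annotated coding part of Eif4a2-210 is 294 bases, stop codon included, against 1224 bases in Eif4a2-201. Whether reads cross that junction cannot be seen in the tables, which give shares and no junction counts.

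**Figure D3:**
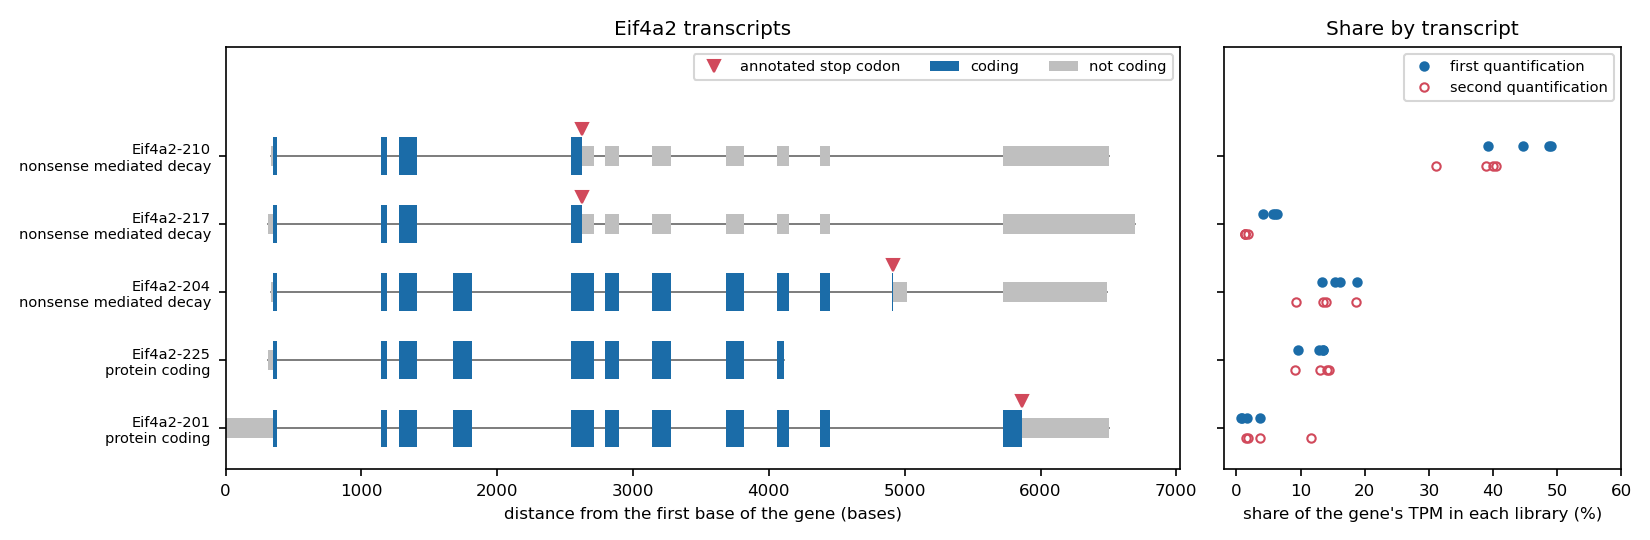
Left, 5 annotated Eif4a2 transcripts drawn to scale by distance in bases from the first base of the gene, with coding exons in blue, other exon parts in grey and annotated stop codons as red triangles; right, the share of the gene's TPM in each transcript, with 1 point per library in the first (filled) and second (open) transcript table. Eif4a2-210, which lacks the 140-base exon, holds 39.3% to 49.0% in the first table, while Eif4a2-201 holds at most 3.75% there.

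Short noncoding isoforms took large shares of several other members. The 383-base processed transcript Eif1-202 held 39.5% ± 3.09 of Eif1 in the first table and 45.8% ± 4.29 in the second. Eif4a3-203, of 466 bases, held 46.3% ± 5.97 of Eif4a3 and 31.4% ± 11.1. Eif1ax-202, a retained-intron transcript of 416 bases, held 49.2% ± 9.68 of Eif1ax in the first table and 62.2% ± 4.64 in the second, where it overtook the coding Eif1ax-201. Since TPM is per length, a short isoform adds more to a gene's TPM than to its reads. For Eif4ebp1 the noncoding share varied by library, at 30.6%, 26.1%, 2.96% and 43.1% in the first table, so its low gene total in replicate 3 went with a low noncoding share. Processed transcripts of Eif2s1 held 14.9% ± 7.86 in the first table and 38.6% ± 6.93 in the second. Retained-intron transcripts also held 43.0% ± 6.75 of Eif2b2 in the first table and 47.9% ± 3.16 in the second. For Eif5b the 2 tables gave different pictures: Eif5b-202, with a retained intron, held 3.08% ± 2.84 in the first and 48.2% ± 3.12 in the second. Eif2a had 25.3% ± 5.41 of its TPM in decay transcripts in the first table and 12.3% ± 4.34 in the second. Among members with several coding isoforms, the leading one held under 60% in both tables for Eif4g1 (48.9% ± 3.10 and 48.1% ± 5.69), Eif4g3 (40.4% ± 1.53 and 37.7% ± 1.98) and Eif4e, whose leading transcript was Eif4e-205 at 39.1% ± 2.47 in the first table and Eif4e-202 at 42.1% ± 2.69 in the second. Eif4enif1-203 led its gene with 41.1% ± 7.59 and 35.6% ± 8.19, and Eif2b4-203 led Eif2b4 with 29.9% ± 1.93 and 32.3% ± 4.13.

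The retained-intron share of the members moved with the library. Over all members it was 1.25%, 3.09%, 1.93% and 1.87% in replicates 1 to 4 of the first table and 1.76%, 4.70%, 2.50% and 2.90% in the second. Of the 34 members with such transcripts detected in the first table, 29 had their highest share in replicate 2. In 23 the share was lowest in replicate 1, with ties at 0 between replicate 1 and other libraries counted for replicate 1. The median share over the 34 members was 0.273%, 2.99%, 0.693% and 0.612% in replicates 1 to 4. A like pattern held over the 5540 genes with at least 1 TPM in every library and retained-intron TPM above 0. Of these, 74.6% were highest in replicate 2 and 69.0% lowest in replicate 1, with ties counted in the same way. Their median share was 0.532%, 4.35%, 1.44% and 1.80% in replicates 1 to 4. A difference between the members and other genes was not tested. The nuclear RNAs Malat1 and Neat1 followed the same extremes: Malat1 had 55.7, 719, 416 and 295 TPM and Neat1 9.62, 41.2, 31.7 and 21.1 TPM in replicates 1 to 4. The part of nuclear RNA in these shares was not tested.

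**Figure D4:**
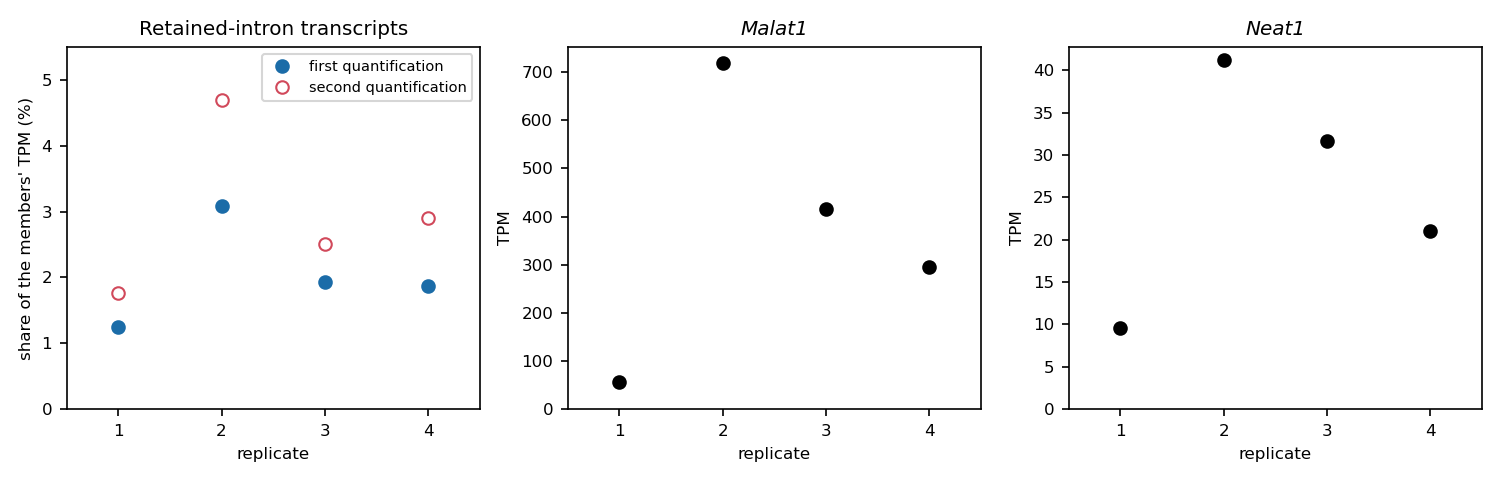
Left, the share of the initiation factor genes' TPM in retained-intron transcripts in each of 4 libraries, filled for the first and open for the second transcript table; middle and right, TPM of the nuclear RNAs Malat1 and Neat1 in the first quantification. Replicate 2 is highest and replicate 1 lowest in all 3 panels.

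Between replicates, the spread of most initiation factor genes lay below that of the median gene. The biological coefficient of variation (the spread of counts beyond counting noise) had a median of 0.135 over the 53 members, against 0.156 over the 10989 genes with a mean of at least 50 counts. The steadiest were Eif2ak1 (0.109), Eif3d (0.110), Eif4e2 (0.112), Eif6 (0.113) and Eif2b5 (0.115). The most variable were Eif4ebp3 (0.279), Eif3j2 (0.229), Eif2ak3 (0.221), Eif4e (0.214) and Eif2b3 (0.214). Of these, Eif4ebp3, Eif3j2 and Eif4e share most of their words with other genes, Eif4e 56.1% of those of its leading transcript and 50.8% with the pseudogene Gm7327 alone (0.290 TPM). Eif4a1 (67.5%), Eif3m (57.9%) and Eif3j1 (57.7%) also share most of theirs, yet had coefficients of 0.157, 0.118 and 0.161. Eif4ebp3 and Eif2b3 are among the members with the fewest counts. A link of spread to word sharing or to counts was not tested. In counts scaled between libraries, 36, 28, 16 and 17 of the 53 members lay above their own mean in replicates 1 to 4, with medians of 0.08, 0.01, -0.06 and -0.05 on the log2 scale; over all genes the share above was between 49.4% and 50.3%. Members thus stood slightly higher in replicate 1, the library with the lowest Malat1, and no test over members was made.

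**Figure D5:**
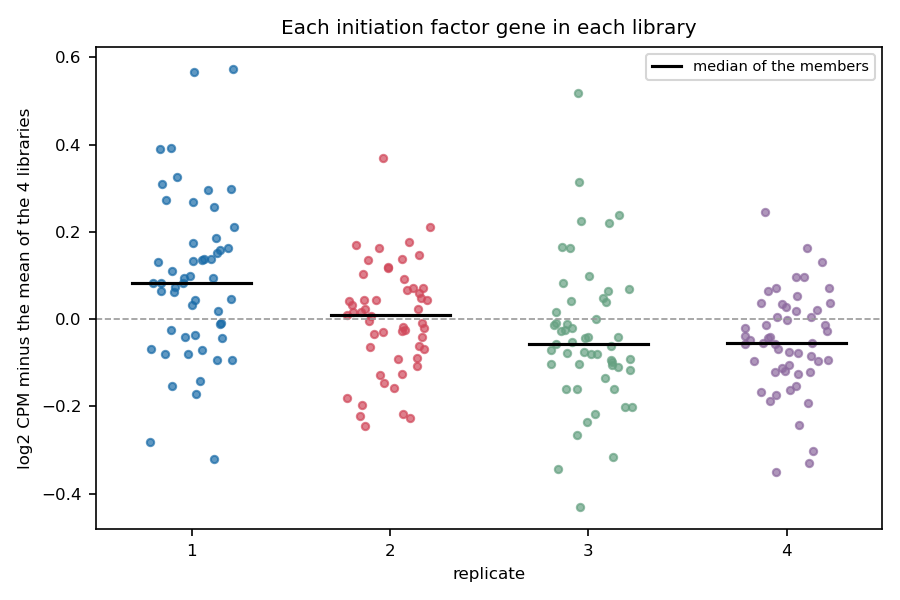
Deviation of each initiation factor gene from its own mean over the 4 libraries, in log2 CPM (counts scaled to a common library total); each point is 1 of 53 genes, black bars are medians and the horizontal spread within a replicate has no meaning. Replicate 1 has 36 genes above 0, while replicates 3 and 4 have 16 and 17.

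The 2 deposited quantifications were also set against each other gene by gene. As deposited, first minus second, 3 of the 53 members tested differed by more than a log2 difference of 1 in limma's treat test: Eif3j1, Eif4a3 and Eif4ebp3, all higher in the first. That fit gave every member the same standard error, 0.258, so these calls follow the size of the difference and not each gene's own spread. The background was 4.28% of 10329 genes higher in the first quantification and 2.22% higher in the second (2.3% of protein-coding genes higher in the first), and the median gene was higher in the first by 1.40 on the log2 scale, a shift of scale that is itself above the tested difference of 1. Eif3j1 had 4.67 ± 0.680 TPM in the first and 1.16 ± 0.404 TPM in the second, Eif4a3 33.5 ± 4.95 and 10.1 ± 3.70 TPM, and Eif4ebp3 3.10 ± 0.943 and 0.905 ± 0.403 TPM. When both were rescaled to protein-coding genes, no member was called. Eif4a3 shares 44.8% of its words with 3 other genes, Gm5580 foremost. In the second quantification Eif4e1b had estimated counts of 1.00, 20.7, 12.6 and 10.2 and 0.0295, 0.173, 0.0641 and 0.0982 TPM in replicates 1 to 4, and was called below 1 TPM.

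For the other steps of translation, the counts of genes called above 1 TPM stand beside a background of 58.2% of all genes tested and 71.2% of protein-coding genes, and nothing particular to these lists is read from them. Of 17 genes for elongation factors and their modifying enzymes, 15 were called above 1 TPM and 2 had too few counts to test (Eef1a2 and Eef1akmt3). Eef1a1, which brings aminoacyl-tRNA to the ribosome, had 938 ± 73.2 TPM, Eef2, the translocase, 220.0 ± 19.7 TPM and Eef1b2, an exchange factor for eEF1A, 76.1 ± 8.47 TPM. Of 11 termination and recycling genes, 9 were called above 1 TPM, led by the release factor Etf1 at 30.4 ± 4.63 TPM, Gtpbp2 at 29.0 ± 11.3 and Denr at 22.2 ± 4.495. The retrogenes Gspt2 (0.278 ± 0.0932 TPM) and Mcts2 (0.165 ± 0.0819 TPM) were called below. Of 22 poly(A)-binding proteins and cap-complex partners, 18 were called above 1 TPM, led by Pabpc1 at 235 ± 29.5 TPM, Cyfip1 at 55.9 ± 19.0 TPM and the helicase gene Ddx3x at 30.3 ± 3.15 TPM; Angel1 (0.790 ± 0.210 TPM) and Ctif (0.950 ± 0.131 TPM) were not called, and Pabpc6 and Ddx3y had 0 counts.

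All 23 genes listed for the signalling around translation were called above 1 TPM, against 71.2% of protein-coding genes. The highest was Rps6, at 189 ± 20.9 TPM, a ribosomal protein gene listed as a target of S6 kinase and not as a regulator. Next came Ppp1ca, a catalytic subunit of the phosphatase that resets eIF2 alpha, at 95.7 ± 16.9 TPM, and its relative Ppp1cc at 49.2 ± 8.31 TPM. Genes of the mTOR complex were lower, with Mtor at 4.98 ± 0.939 TPM and Rptor at 7.42 ± 1.11 TPM. Mknk1 and Mknk2, the kinases that phosphorylate eIF4E, had 22.9 ± 4.16 and 31.5 ± 5.36 TPM. Ppp1r15a (GADD34), which directs the phosphatase to eIF2 alpha, had 10.6, 25.7, 13.4 and 25.4 TPM (SD 7.92), and Ppp1r15b, its constitutive counterpart, had 21.2, 17.2, 23.4 and 30.99 TPM (SD 5.79). All 10 mitochondrial initiation and elongation genes were called above 1 TPM but only Tufm was called above the median expressed gene, at 13.7 ± 1.42 TPM; Gfm1 had 8.97 ± 1.83 and Mtif2 6.82 ± 0.531 TPM.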

How the data were processed

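For every library the authors deposited expected counts, TPM and posterior mean TPM per gene and per transcript (the first quantification, from an alignment to the transcriptome) and, in a further table of transcripts, estimated counts and TPM (the second, from the reads directly), per the file headers and the deposited notes of each library. Per those notes the build is mm10 with the M21 annotation; no source used here names the aligner or quantifier. Totals were 30660511, 36681241, 48223718 and 42785115 expected counts in replicates 1 to 4. Members and gene lists were chosen with earlier results of these data known.

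Genes with at least 10 summed counts were tested with limma 3.58.1 (intercept only, variance trend, log2(TPM + 0.1)), one-sided against 1 TPM and against the library's median protein-coding gene of at least 1 TPM, with Benjamini-Hochberg adjustment over all genes tested and calls below 0.05. The quantifications were compared with limma treat (log2 difference 1, no variance trend). Pair ratios were tested by two-sided exact sign flips. Spread came from edgeR 4.0.16 (TMM, counts rounded to whole numbers), with DESeq2 1.42.0 as an alternative. Limits from 3 counts cover counting error only. Word sharing used 31-base words of GENCODE M21 transcripts. Fits were tested on simulated data. R 4.3.3 and Python 3.11.15 were used.

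Every member has its mean; values by library are given for the 12 highest, the extremes of each group, members with changing calls, the most and least variable and the members of the 21 pairs. From other lists, the 3 highest and those not called are named; Ppp1r15a, Ppp1r15b, Mtor, Rptor, Mknk1, Mknk2, Dhps and Dohh were chosen after their values were seen. A further macrophage marker of the list is not reported here.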

Additional observations from a re-analysis of the deposited data

Results flagged for a closer look

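Of 53 members, 3 had 1 library set apart from the other 3 by a gap above Dixon's critical value for 4 samples, a gap that chance gives in about 1 group in 20. Eif2ak3 had 2.74 TPM in replicate 3 and 1.71 to 1.82 TPM in the others. Eif3f had 32.3 TPM in replicate 4 and 25.5 to 25.6 TPM in the others. Eif3j1 had 5.68 TPM in replicate 1 and 4.22 to 4.45 TPM in the others. None of the 21 pair ratios had such a library.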

How the results depend on the processing

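No paired analysis was possible because all 4 libraries belong to 1 group. The members called above 1 TPM numbered 53 in the main analysis and 47 to 53 under the alternatives, and leaving out 1 replicate gave 52 to 53. The second quantification as deposited called 2 members below 1 TPM, Eif5a2 and Eif4e1b. It turned the log2 difference from 1 TPM to -0.40 for Eif2ak3, -0.20 for Eif2ak4, -0.15 for Eif2b3, -0.22 for Eif4ebp3 and -0.96 for Eif5a2; rescaled to protein-coding genes it called 53 members above. Against the median expressed gene, 34 to 41 members were called above and 8 to 16 below, the 16 in the second quantification as deposited. There Eif2ak1 turned to -0.34 and Eif2b5 to -0.38 on the log2 scale, and after rescaling to protein-coding genes Eif3j2 turned to 0.0047, Eif4ebp1 to 0.46 and Eif4enif1 to 0.38 (0.22 in the first quantification rescaled). Eif2b5 also lost its call without replicate 3 or 4, and Eif1ad and Eif2b1 lost theirs after rescaling.

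Calls between the quantifications were the least stable: 3 in the main analysis, 0 when both were rescaled, 0 with no filter on TPM, 15 with a pseudocount of 1, 34 with a variance trend, and 0 to 3 when 1 replicate was left out. The log2 ratio of Eif3j1 over Eif3j2 turned to -1.13 in the second quantification. The members' median coefficient of variation was 0.118 with DESeq2 and 0.116 to 0.150 when 1 replicate was left out. The coding share of the members' TPM was 86.9% in the second transcript table. The causes of these changes were not tested, apart from the scale difference given above. Depth limits Eif4e1b, Eif4ebp3 and Eif2b3 most.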
